A study of Sus scrofa with 20 samples.

Results

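The 200 tags described here were present in every prenatal library of pig longissimus muscle and were low after birth. A tag is CATG, the cutting site of the enzyme NlaIII, with the 17 bases that follow it in a transcript. Digital gene expression (DGE) counts such tags instead of whole transcripts. The tags were chosen from 801159 distinct tags by their levels. Levels are in TPM (tags per 1e6), the count of a tag over the library total, times 1e6. For each tag the lowest TPM of the 10 prenatal libraries and the highest TPM of 8 postnatal libraries were taken. To both 1 TPM was added, and the 200 tags with the highest ratio of the first to the second were kept. The difference between the prenatal and the postnatal libraries therefore chose the tags, and it is described below without a test. Tags are numbered by the rank of this ratio.

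The libraries came from Landrace (LR) and Lantang (LT) pigs at 35, 49, 63, 77 and 91 days post coitus (dpc) and at 2, 28, 90, 120 and 180 days post natum (dpn). LR is a lean breed selected for growth and LT is a fatter Chinese breed. Every library was made from the pooled RNA of 3 animals of 1 breed and 1 stage, and none of the 20 combinations was repeated. No library lay between 91 dpc and 2 dpn, so the time of the fall relative to birth cannot be told from these data.

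The LR libraries of 120 and 180 dpn stood apart and were not used to choose the tags. Tags with a further CATG inside their 17 bases took 0.116% and 0.224% of their counts, against 2.14% to 3.802% in the other 18 libraries. The 7 chosen tags with a further CATG were listed at 0 in both. Library totals were 2157111 to 5322022 tags. Tags seen once had been removed before deposit, so a tag listed at 0 had at most 1 count, and 2 counts, the smallest listed value, were 0.376 to 0.927 TPM.

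Muscle fibres of the pig form before birth, first primary fibres from fusing myoblasts and then secondary fibres around them. After birth the fibres grow in size, and contractile proteins of the fetal kind are replaced by adult ones. Transcripts of dividing precursor cells and of fetal contractile and matrix proteins are known to be abundant in fetal muscle and scarce in adult muscle. The tags were not matched to genes here, so they are given by sequence, and no tag is assigned to any of these classes. In whole muscle, fewer cells of a type and less RNA per cell cannot be told apart.

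The sequences that the results turn on are given from 5′ to 3′, with the NlaIII site in capitals. The first 10 had the highest ratios.
Tag 1: CATGgtctgtggtctccgcta
Tag 2: CATGgttaatactggacagca
Tag 3: CATGataacaaaggtcaaaat
Tag 4: CATGagggaaattgtgggttt
Tag 5: CATGagtggtggctaacctgc
Tag 6: CATGtctgggtgaagcagacc
Tag 7: CATGggatagtattagaaggc
Tag 8: CATGacaacaaatggtgtcat
Tag 9: CATGagaagaaaatgaatggg
Tag 10: CATGatgcgagcagttgcaag

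The next 5 kept the largest share of their prenatal level at 2 dpn, in falling order.
Tag 190: CATGaccaaaaaccaaaagtg
Tag 159: CATGtagggtctcaggccaag
Tag 118: CATGctttatttcattttttt
Tag 115: CATGtggaagcagacagagca
Tag 45: CATGgactttggaaaatattt

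The following 9 led the tests within the prenatal period, between breeds or with stage.
Tag 90: CATGacccttcttgcagtttc
Tag 127: CATGggagacaaagtggcttc
Tag 30: CATGaagtaccacattttaaa
Tag 70: CATGggcccatatccctccct
Tag 39: CATGcaataaaccttgtcttc
Tag 194: CATGgagactggtgagacctg
Tag 52: CATGgagttttcaagtataca
Tag 165: CATGttataatataatgtttt
Tag 108: CATGctggatctccaccccac

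Before birth the tags were spread over a wide range of levels. Their median prenatal TPM ran from 3.74 to 5614, with a median of 32.3 over the 200 tags. There were 41 tags with a median of at least 100 TPM and 7 with at least 1000 TPM. Within a tag the highest prenatal library was 1.77 to 55.1 times the lowest, with a median of 4.51. The lowest prenatal TPM was 2.14 to 3314, and the highest TPM of the 8 postnatal libraries was 0 to 1043. Of the 200 tags, 21 were listed at 0 in all 8 of these libraries, where tags seen once are also listed at 0. The name "lost after birth" thus means no listed count for these 21. For the other tags it means a low level. The ratio ran from 3.14 to 16.95 with a median of 3.96. The last 2 tags inside the limit were tied at 3.138, and the first outside had 3.137, so the limit fell in a continuous series of values.

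Tag 1 had the highest ratio. Its prenatal TPM was 328, 284, 301, 306 and 82.6 in LR and 761, 288, 178, 149 and 45.1 in LT, from 35 to 91 dpc. At 2, 28 and 90 dpn it had 0, 1.72 and 0 TPM in LR and 0.906, 0.975 and 1.52 TPM in LT. Both breeds were lowest before birth at 91 dpc, and every postnatal value lay far below that stage.

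Tag 4 was the most abundant of the first 10. It had 1680, 1286, 1906, 773 and 820 TPM in the prenatal LR libraries and 1243, 2268, 839, 1244 and 529 TPM in the prenatal LT libraries. It then fell by steps, to 39.5, 23.0 and 4.17 TPM in LR and 32.4, 24.6 and 13.2 TPM in LT at 2, 28 and 90 dpn. Unlike tag 1 it was still well above the detection limit at 2 and 28 dpn in both breeds.

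Tag 6 had 204 to 348 TPM in LR and 249 to 503 TPM in LT from 35 to 77 dpc, and 39.2 and 50.7 TPM at 91 dpc. It was listed at 0 in LR at 2, 28 and 90 dpn and in LT at 2 dpn, and had 0.780 and 0.506 TPM in LT at 28 and 90 dpn. At 180 dpn it had 2.73 TPM in LT, its highest postnatal value. The other 7 of the first 10 had highest postnatal values of 0.975 to 9.06 TPM, the last being tag 5 in LT at 2 dpn.

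**Figure D1:**
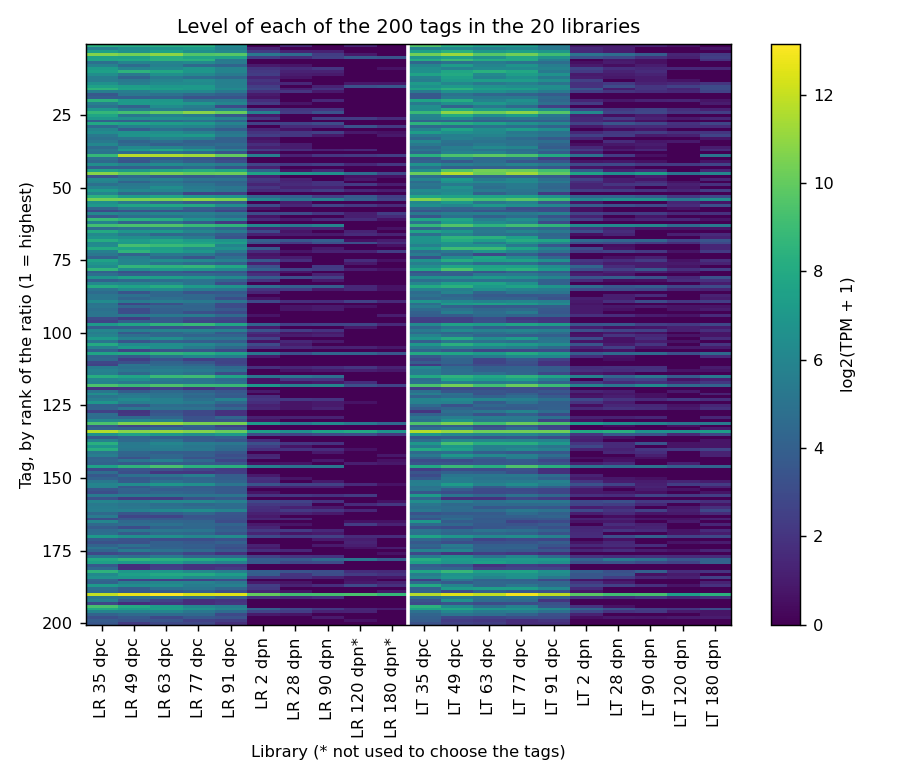
Heat map of the level of each of the 200 tags, as log2(TPM + 1), with the tags in rows by rank of the ratio and the 20 libraries in columns, LR left and LT right. All 200 tags were present in the 10 prenatal libraries, and the bright rows that continue after birth are abundant tags such as tag 190, with 1043 TPM in LR and 892 TPM in LT at 2 dpn.

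Most of the fall had taken place by 2 dpn in both breeds. The choice asked for a low level in all 8 postnatal libraries, those of 2 dpn included. Tags that fell only later were thus unlikely to be chosen, and the early fall follows in part from the choice. The summed TPM of the 200 tags was 29849, 31342, 38087, 28584 and 21373 in LR and 25773, 38659, 24131, 32042 and 16645 in LT, from 35 to 91 dpc. At 2, 28 and 90 dpn it was 2634, 1340 and 1504 in LR and 2483, 1794 and 1671 in LT. At 2 dpn the sum was thus 8.82% of the breed's prenatal median in LR and 9.63% in LT. At 28 dpn 4.49% was left in LR and 6.96% in LT, and at 90 dpn 5.04% and 6.48%. Against the 91 dpc library alone, 12.3% and 14.9% were left at 2 dpn. The tags took 1.66% to 3.87% of the counts of a prenatal library and 0.0623% to 0.263% of those of the 8 postnatal libraries.

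**Figure D2:**
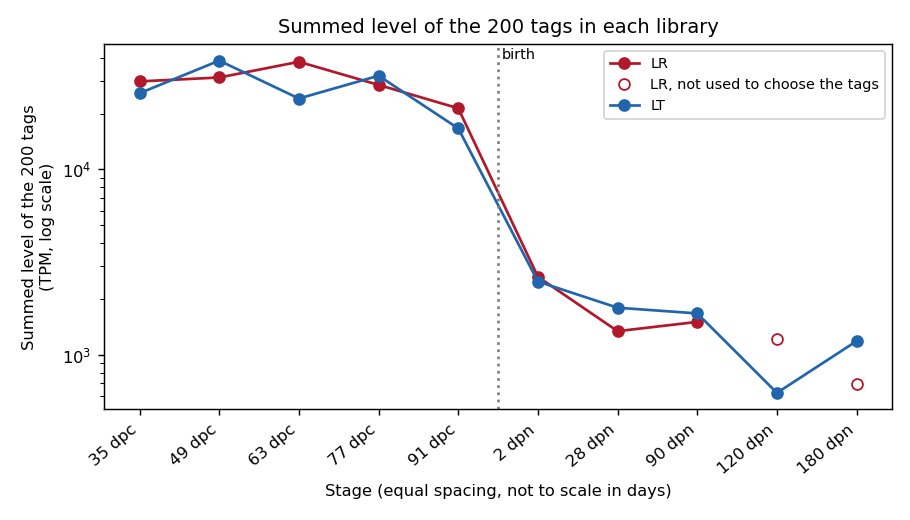
Summed TPM of the 200 tags on a log scale in each library, by stage. The 10 prenatal libraries lie between 16645 and 38659 TPM and the 8 filled postnatal points between 623 and 2634 TPM. The open points are the LR libraries of 120 and 180 dpn, which were not used to choose the tags and had 1210 and 695 TPM.

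Tag 190, the most abundant, carried much of what remained. It had 3983, 6685, 9063, 5466 and 5761 TPM in LR and 3314, 5822, 3869, 7790 and 3715 TPM in LT before birth. It had 1043, 583 and 610 TPM in LR and 892, 560 and 621 TPM in LT at 2, 28 and 90 dpn. Its share of the sum was 12.9% to 27.0% before birth and 31.2% to 43.5% at 2, 28 and 90 dpn. Without it, 6.45%, 3.07% and 3.63% of the sum were left in LR and 7.09%, 5.49% and 4.68% in LT at these stages. On the TPM scale the sum was thus lower at 28 than at 2 dpn in both breeds with and without this tag, though in LT this depended on the scaling.

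Tag by tag, the share left was the TPM at a stage over the breed's median prenatal TPM. At 2 dpn 160 of the 200 tags in LR and 151 in LT were below 10% of their prenatal level, against 6.09% and 5.3% of the 20002 tags whose lowest prenatal TPM was at least that of the chosen tags. The counts were 189 and 160 at 28 dpn, where 11.5% and 9.52% of the 20002 tags were below 10%. They were 190 and 173 at 90 dpn, against 15.3% and 11.1%. These counts follow from how the tags were chosen, and nothing is read from their distance to the 20002 tags. Median shares left were 4.49%, 0.966% and 0% in LR and 4.65%, 3.50% and 2.04% in LT. The number listed at 0 was 54, 89 and 101 in LR and 43, 47 and 74 in LT. The lower values are close to the detection limit, where 1 or 2 counts decide between 0 and a share of some percent for a tag of low prenatal level.

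**Figure D3:**
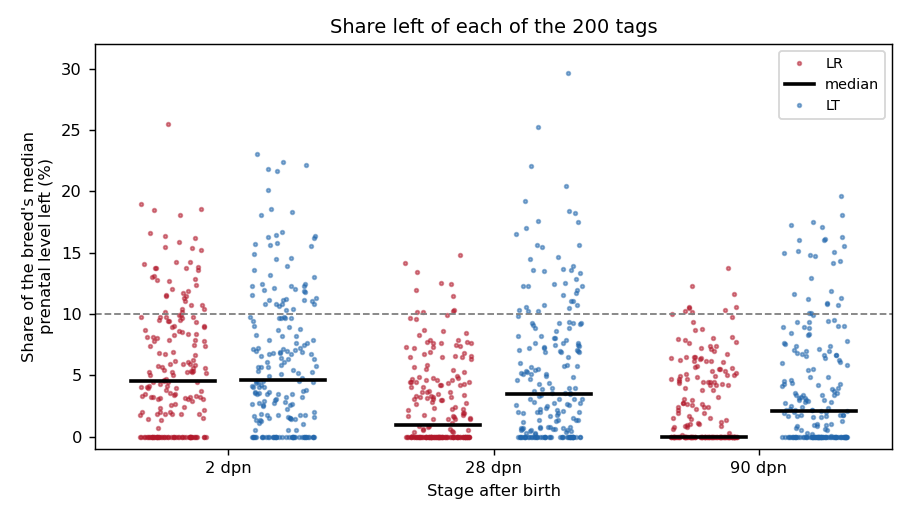
Share of the breed's median prenatal TPM left at 2, 28 and 90 dpn, with 1 point per tag, 200 points per breed and stage, a black bar at the median and a dashed line at 10%. The median fell from 4.49% to 0% in LR and from 4.65% to 2.04% in LT between 2 and 90 dpn, and the highest points were 25.4% in LR at 2 dpn and 29.6% in LT at 28 dpn.

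As a fold, with values under 3 counts set to 3 counts, the median tag was 14.0 times lower than its prenatal median at 2 dpn in LR and 14.9 times lower in LT. It was 19.1 and 19.2 times lower at 28 dpn and 15.96 and 21.9 times lower at 90 dpn. In LR 113 tags at 28 dpn and 125 at 90 dpn were under 3 counts, so these medians are set in part by the depth of the libraries.

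The share left depends on the scale. TMM factors, which scale libraries by tags in common and not by their sum, were higher before birth. On that scale the share of a tag is 1.27 to 1.77 times larger in LR and 1.26 to 1.92 times larger in LT. With TMM the tags below 10% numbered 134, 163 and 160 in LR and 132, 114 and 138 in LT at 2, 28 and 90 dpn. The sum left was then 11.7%, 7.46% and 9.32% in LR and 12.9%, 14.2% and 13.1% in LT. The large step from before birth to 2 dpn, which the choice of tags asked for, was there on both scales. The further fall from 2 to 28 dpn was there on both scales in LR, while in LT it was present in TPM and turned into a small rise with TMM.

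Tags fell at different speeds. In LR 156 tags and in LT 130 tags were below 10% at 2 dpn and at both later stages, and 108 tags did so in both breeds. At 90 dpn 10 tags in LR and 27 in LT were not below 10%, and 4 tags were above it in both breeds. These 4, named after their values were seen, were tags 190 and 118 and 2 others.
Tag 63: CATGgaacatgccagtgggaa
Tag 198: CATGaagggtgcagggaggag

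Tag 63 had 125 counts in LR and 252 in LT at 90 dpn. The place of tag 198 rested on 2 counts in LR and 3 in LT at 90 dpn, 10.01% and 10.8% of its prenatal level.

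Tag 118 had 697, 477, 711, 496 and 471 TPM in LR and 672, 1317, 573, 1109 and 498 TPM in LT before birth. It had 126, 51.2 and 60.7 TPM in LR and 60.2, 34.7 and 75.6 TPM in LT at 2, 28 and 90 dpn. Its share at 2 dpn, 25.4% in LR, was the highest of all 200 tags in that breed, while LT kept 8.97%. Tag 45 kept 16.2% and 16.3% at 2 dpn, tag 115 kept 11.5% in LR and 21.6% in LT, and tag 159 kept 13.7% and 22.4%. These slowly falling tags ranged in prenatal median from 23.8 TPM (tag 159) to 5614 TPM (tag 190), so they were not all abundant.

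At the other end, 32 tags were listed at 0 in both breeds at 2 dpn and 24 tags were so at 2, 28 and 90 dpn. The first 5 of the 32 in alphabetical order are shown, since their shares are tied.
Tag 132: CATGaaataggatgaaaaata
Tag 141: CATGagaaccagcataacatt
Tag 119: CATGagatttttaagtatggc
Tag 95: CATGagggaaattgtgggctt
Tag 96: CATGcaaataacagtttttgc

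Their prenatal medians were 4.70 to 14.3 TPM, and depth limits what can be said of their fall. With 3 counts as the limit, the fall of tag 119 in LR at 2 dpn could be followed to 3.26-fold and that of tag 96 to 5.91-fold, so not even a fall below 10% could be shown for these. Tag 141 was listed at 0 at 2 dpn and then had 0.927 TPM in LR at 90 dpn and 1.76 and 2.28 TPM in LT at 28 and 90 dpn, 16.1% of its LT prenatal level at 90 dpn. Tag 6, with a prenatal median of 259 TPM, was the single one of the first 10 that was listed at 0 in both breeds at 2 dpn. Tag 24 was abundant before birth and low by 28 dpn, and is named after its values were seen.
Tag 24: CATGtgttttagagtaattac

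Tag 24 had 409, 568, 1001, 1702 and 1072 TPM in LR and 458, 1845, 1187, 1797 and 798 TPM in LT before birth. At 2 dpn 56.2 and 72.0 TPM were left, at 28 dpn 4.13 and 5.27 TPM, and at 90 dpn 8.81 and 6.07 TPM. Shares of 5.61% and 6.07% at 2 dpn and 0.412% and 0.444% at 28 dpn made the course nearly the same in both breeds. Tag 190 over the same stages went from 18.1% to 10.1% in LR and from 23.0% to 14.5% in LT.

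With low counts as listed, the shares left in the breeds lay furthest apart at 28 dpn. More was left in LT than in LR for 110 tags and less for 48 at 28 dpn, against 90 and 78 at 2 dpn and 92 and 45 at 90 dpn. Each tag was also dated by the first of the 3 stages from which it was below 10% and stayed so up to 90 dpn. By this date 57 of the 200 tags were later in LT than in LR and 24 later in LR. The other 119 had the same date or, in both breeds, were not below 10% at 90 dpn. A tag below 10% at 2 dpn that later rose above it counts as late. At 2 dpn 151 tags in LT were below 10% and 130 stayed so, against 160 and 156 in LR. A later date is thus not always a later fall. From 2 to 28 dpn, 28 tags rose in TPM and 124 fell in LR, while 65 rose and 106 fell in LT. With TMM these counts were 37 and 115 in LR and 94 and 77 in LT, so the direction in LT flipped, and more was left in LT than in LR at 28 dpn for 117 tags and less for 41. Each breed and stage had 1 library, so these differences have no replicate check. LT had the deeper library at 28 dpn, and with all values under 0.927 TPM set to 0 in both breeds the tags below 10% were 189 in LR and 162 in LT at 28 dpn. With this limit the median share left in LT dropped to 1.32% at 28 dpn and 0.558% at 90 dpn, and that in LR was 0% at both, so the size of the gap between the medians depended on depth. With values under 3 counts set to 3 counts, 161 tags in LR and 152 in LT were below 10% at 28 dpn. At 90 dpn these were 156 and 157. Medians were then 5.24% in LR and 5.21% in LT at 28 dpn, and 6.27% and 4.57% at 90 dpn. The direction of the gap thus also depended on how low counts were treated. Across the 200 tags the share left in LR and LT had a Spearman rho of 0.45 at 2 dpn, 0.50 at 28 dpn and 0.62 at 90 dpn, given as a description of tags that share libraries and a choice of tags.

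Tag 178 showed the largest share in LT, and is named for that after its values were seen.
Tag 178: CATGatagtagcttcagactg

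Tag 178 had 244, 383, 313, 275 and 198 TPM in LR and 283, 143, 136, 133 and 133 TPM in LT before birth. At 2, 28 and 90 dpn it had 14.4, 12.7 and 22.3 TPM in LR and 17.7, 40.2 and 26.6 TPM in LT. In LT this was 13.0%, 29.6% and 19.6% of its prenatal level, and in LR 5.24%, 4.62% and 8.08%. LR stayed below 10% at all 3 stages and LT at none of them.

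The changes between postnatal stages were tested. The choice of tags capped all 8 postnatal libraries alike, which also bounds how far a tag can differ between them. These tests were thus not independent of the choice. In edgeR's quasi-likelihood test with the breeds as replicates of a stage, 0 of the 199 tags tested changed from 2 to 28 dpn at an adjusted p below 0.05, with a background of 0% of 37769 tags, while 26 had an unadjusted p below 0.05. DESeq2 called 6 of the 199 (3.02%) and 1.36% of all tags for this change, and edgeR without the filter on low counts called 4 of 200 (2%) and 0.115% of all tags. From 28 to 90 dpn 0 of 199 changed, with a background of 0%, 14 had an unadjusted p below 0.05, and DESeq2 called 0 of the 199 and 0.0635% of all tags. The 1 remaining tag did not pass the filter on low counts. Most of the 199 passed this filter through the prenatal libraries, where the tags are high. On the 6 libraries of 2, 28 and 90 dpn alone 74 of the 200 tags passed, and in edgeR 0 of these 74 were called in either comparison, with 9 and 2 at an unadjusted p below 0.05. For the many tags at or near 0 in the libraries compared, these tests carry little information. With 0% of all tags called, the 0 of 199 is not read as a property of the chosen tags. Unadjusted p below 0.05 was found in 13.1% of the chosen tags and 10.7% of all tags tested for 28 against 2 dpn, and in 7.04% and 6.70% for 90 against 28 dpn. The median log2 change of the 199 tags from 2 to 28 dpn was −0.08 with TMM and −0.59 with scaling by the library sum, and that of all tags −0.05 and −0.53. For tags listed at 0 in the libraries compared, the fitted change was close to 0 with a very large standard error. The closeness of the medians of the 199 and of all tags is therefore not read as likeness. In the fit on the 6 libraries alone the median was −0.27 for the 74 tags and −0.04 for the 36688 tags tested.

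Within the prenatal period 20 of the 200 tags (10%) changed with stage, nearly all downward, against a background of 4.03% of 48619 tags. In edgeR's quasi-likelihood test of a trend from 35 to 91 dpc with breed as a block, 19 of 200 tags fell (9.5%) and 1 rose, against a background of 1.68% of all tags called lower and 2.35% called higher. The fitted change was negative for 158 of the 200 tags (79%) and for 57.1% of all tags. Its median over the 56 days was −0.73 on the log2 scale for the 200 tags and −0.18 for all tags. With scaling by the library sum these medians were −0.94 and −0.37, so a shift of all tags moves with the scaling and the 200 tags lay below it on both scales. The choice of tags used the lowest prenatal value of each, which for 118 of the 200 tags was at 91 dpc. Test and choice were thus not independent. Without the 91 dpc pair the medians were −0.12 for the 200 tags and −0.25 for all tags. The tags tested were also not matched in level to the 200.

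**Figure D4:**
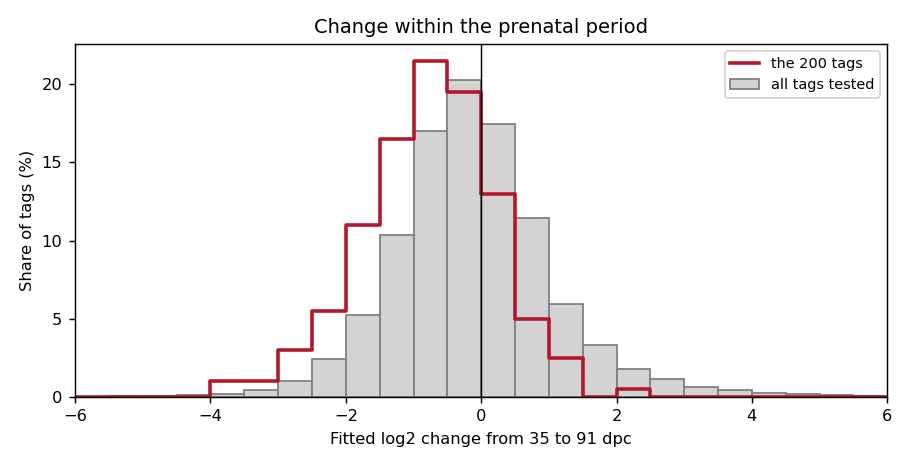
Distribution of the fitted log2 change from 35 to 91 dpc in edgeR, as a share of tags in bins of equal width, for the 48619 tags tested (grey bars) and the 200 tags (red line). The red line is shifted to the left, with a median of −0.73 against −0.18. The axis is limited to the range that holds all 200 tags and nearly all others.

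Tag 194 had the largest fitted fall. It had 631, 263, 154, 62.3 and 44.6 TPM in LR and 343, 84.1, 26.8, 51.1 and 11.5 TPM in LT from 35 to 91 dpc, a log2 change of −3.81 ± 0.50 (SE) with an adjusted p of 0.00328 in edgeR. Tag 52 went from 62.1 to 4.75 TPM in LR and from 58.5 to 3.76 TPM in LT, with a log2 change of −3.43 ± 0.66 (adjusted p = 0.0167). Tag 165 went from 63.5 to 7.36 TPM in LR and from 126 to 6.39 TPM in LT, with −3.33 ± 0.61 (adjusted p = 0.0136). In tags 194 and 52 the 91 dpc library was the lowest of the breed in both breeds. Tag 1, with a log2 change of −2.41 ± 0.62, was just inside the threshold at an adjusted p of 0.0499. These p-values are not independent of the choice of tags, and without the 91 dpc pair 0 of 200 tags were called by the same test.

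Tag 108 was the tag that rose. It had 18.7, 11.6, 29.7, 59.3 and 39.6 TPM in LR and 11.8, 24.8, 38.6, 63.3 and 59.2 TPM in LT, a log2 change of 2.30 ± 0.47 with an adjusted p of 0.0209. At 2 dpn it had 0.963 and 2.26 TPM and at 90 dpn it was listed at 0 in both breeds, so a tag that rose up to 77 dpc was low in the first library after birth of both breeds.

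The decline before birth rested on 91 dpc. That library was the lowest of the 5 for 117 tags in LR (58.5%) and 118 in LT (59%), and for 83 tags in both breeds (41.5%). Among the 20002 tags these shares were 23.1%, 21.6% and 7.33%. From 77 to 91 dpc 168 tags fell in LR and 178 in LT, to a median of 68.0% and 60.4% of the 77 dpc level. The medians of the 20002 tags were 93.5% and 98.3%. Without the pair of 91 dpc libraries 0 of 200 tags and 73 of 50128 tags were called for a trend by edgeR's test, with 34 of the 200 at an unadjusted p below 0.05. Without the 77 dpc pair 1 was called (0.5%, against 0.285% of all tags), without the 49 or the 63 dpc pair 9 each (4.5%, against 2.45% and 2%), and with 35 dpc set against 49 to 91 dpc 4 (2%, against 2.37%). Tags whose lowest prenatal library was 91 dpc had their ratio set by that library, so the choice of tags asked for a level well above the postnatal ones at the stage closest to birth. The shares lowest at 91 dpc are therefore a description and are not independent of the choice.

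The choice of tags asked for a high level in all 10 prenatal libraries, so tags low in 1 breed before birth were less likely to be chosen, and the share called between breeds is not read as a property of the tags. In edgeR's test with stage as a block, 9 of 200 tags (4.5%) differed, 3 higher in LT and 6 higher in LR, against a background of 6.13% of 48619 tags, 3.49% higher in LT and 2.64% higher in LR. The median log2 difference, LT over LR, was −0.13 for the 200 tags and 0.10 for all tags. Unadjusted p was below 0.05 for 27.5% of the 200 tags and 36.8% of all tags. With scaling by the library sum 4 were higher in LT and 2 in LR. The calls depended on single stages. Without the 35 dpc pair 79 of the 200 (39.5%) and 49.6% of all tags were called. Without the 49, 63, 77 or 91 dpc pair 0 of the 200 were called by edgeR in each case, with 26 to 42 at an unadjusted p below 0.05, and 1.5% to 1.77% of all tags. When each library's share of further-CATG counts was added to the model, an alternative chosen after the data were seen, edgeR called 0 of the 200, with 19 at an unadjusted p below 0.05, and 3 of 48619 tags. This share was 2.62% to 2.87% in LR and 3.45% to 3.80% in LT from 49 to 91 dpc. At 35 dpc it was 3.40% in LR and 3.19% in LT. The share thus largely followed breed, and this fit cannot tell them apart.

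Tag 90 differed most. It had 31.4, 5.82, 8.50, 19.2 and 7.12 TPM in LR and 26.1, 135, 170, 136 and 77.6 TPM in LT from 35 to 91 dpc, with a log2 difference of 3.00 ± 0.68 (SE) and an adjusted p of 0.0382 in edgeR. The breeds were alike at 35 dpc and did not overlap from 49 dpc on. Tag 127 had 4.72 TPM in LR and 3.05 TPM in LT at 35 dpc and then 2.61 to 9.14 TPM in LR and 25.4 to 60.9 TPM in LT (log2 difference 2.25 ± 0.57, adjusted p = 0.0494). Tag 30 had 59.3 and 56.5 TPM at 35 dpc and then 13.1 to 27.4 TPM in LR and 82.7 to 197 TPM in LT (2.13 ± 0.52, adjusted p = 0.0462). All 3 tags higher in LT were so at 4 of 5 stages, with LR slightly higher at 35 dpc.

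Tag 70 was higher in LR at all 5 stages. It had 79.1, 596, 484, 406 and 60.8 TPM in LR and 52.4, 97.8, 108, 38.1 and 10.9 TPM in LT, with a log2 difference of −2.37 ± 0.44 and an adjusted p of 0.0199. Tag 39 had 424, 3440, 3037, 2467 and 1004 TPM in LR and 314, 680, 906, 652 and 255 TPM in LT (−1.79 ± 0.36, adjusted p = 0.0264). Tag 39 had 48.8 and 29.2 TPM at 2 dpn and 1.38 and 3.90 TPM at 28 dpn in LR and LT. At 180 dpn it had 33.1 TPM in LT, more than at any other postnatal stage of that breed. Tag 194 was also higher in LR at each stage (−1.54 ± 0.38, adjusted p = 0.0471). All 6 tags higher in LR were so at 5 of 5 stages.

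The remaining 3 tags called between breeds, higher in LR, had log2 differences of −1.36, −1.19 and −1.14. The breeds were not tested against each other after birth, where each stage had 1 library per breed.

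The LR libraries of 120 and 180 dpn gave values that the choice of tags had not used. In these 188 and 199 of the 200 tags were below 10% of the LR prenatal level, and 130 and 139 were listed at 0. Of the 20002 tags 49.2% and 51.6% were below 10% there, far more than in the other libraries, so a low level in these libraries was common to many tags. No chosen tag exceeded its lowest prenatal TPM in either library.

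Some chosen tags were related by sequence. A single pair was 1 base apart, tags 4 and 95, with the substitution T19C from tag 4 to tag 95, counted from 1 at the C of the CATG. Tag 95 took 0.199% to 0.971% of the counts of both before birth and was listed at 0 in every postnatal library. Whether tag 95 is a sequencing error of tag 4 or a transcript of its own was not tested. Tags 21 and 38 were reverse complements of each other, each ending in CATG.
Tag 21: CATGtgactgcttttcacatg
Tag 38: CATGtgaaaagcagtcacatg

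Whether both stem from 1 locus was not tested. Tag 38 took 13.6% to 38.5% of the counts of both in the prenatal LR libraries and 30.3% to 36.8% in LT. Tag 128 held a further CATG from which its last 13 bases equalled the start of tag 109, an overlap that neighbouring sites of 1 transcript would also give. Their origin was not tested.
Tag 128: CATGtttacatggtgtttatt
Tag 109: CATGgtgtttatttaaaactt

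Tag 109 took 41.0% to 68.6% of the counts of this pair in LR before birth and 30.9% to 46.3% in LT. After birth tag 128 was listed at 0 in every library, and tag 109 in all but LT at 28 dpn, where it had 0.390 TPM.

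In base composition the 200 tags did not stand apart. The median was 7 G or C of 17 bases after the CATG for the 200 tags, for the 20002 tags and for all tags, with a range of 1 to 16 among the 200. The polyadenylation signal AATAAA, read on the tag strand only, was present in 1 tag (0.5%), against 2.02% of the 20002 tags and 1.58% of all. A further CATG was present in 7 tags (3.5%), against 3.16% and 3.94%.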

How the data were processed

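Longissimus muscle RNA of 3 pigs per breed and stage was pooled and made into 1 NlaIII tag library each. The authors removed adaptor, empty, low-quality and one-copy tags and deposited, for each library, the count of every distinct tag, not normalized, and the same value as TPM, rounded to 2 decimals. The deposited TPM was used only to check the counts. The submitters' processing notes name Bowtie 0.12.3 for mapping, which these counts do not use.

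TPM was recomputed from the counts, with unlisted tags at 0. The 200 tags (the members) and the lists were chosen with earlier results of these data known. Tests used edgeR 4.0.16 (quasi-likelihood test, TMM, filterByExpr, Benjamini-Hochberg over all tags tested, adjusted p below 0.05) and DESeq2 1.42.0 in R 4.3.3, with 10 prenatal libraries for breed and trend and 18 libraries for postnatal stages. The stages of a breed, or the breeds of a stage, stood in for replicates. The spread behind the p-values thus mixes differences between pools with differences between the breeds in their course over stages. In the trend test it also holds change with stage that is not linear. edgeR was tested on simulated counts. Intervals of counts are not given. At 3 counts, the libraries' floor was 0.564 to 1.39 TPM, for counting error only. Tables used Python 3.11.15 and pandas 2.3.3.

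Tags named in the text were the 10 with the highest ratio, the 5 with the highest and the 5 with the lowest mean share left at 2 dpn (ties by tag), the 3 called tags per direction with the largest log2 change in each test, and pairs 1 base apart. Others are said to have been chosen after their values were seen. Alternatives were another scaling, DESeq2, no filter on low counts (a total of at least 10 counts), other constants in the ratio, merging of tags 1 base apart and leaving out libraries. A common detection limit, and for the breed test the merging and the further-CATG covariate, were added after seeing the data. Tags were not matched to genes, which are not analysed here.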

Additional observations from a re-analysis of the deposited data

Results flagged for a closer look

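The LR libraries of 120 and 180 dpn were not used to choose the tags, and 10 of the 200 tags had at least 3 counts in 1 of them and a higher TPM there than in all 8 other postnatal libraries. The 3 with the highest TPM were tag 5 (CATGagtggtggctaacctgc) with 11.4 TPM at 120 dpn against at most 9.06 elsewhere after birth, tag 15 (CATGtggtgtataatgaagac) with 10.5 TPM at 180 dpn against 7.22, and tag 29 (CATGcgcggtgtaacctaaag) with 9.04 TPM at 120 dpn against 2.32. Tag 29 exceeded the other postnatal libraries by the largest factor, with 31 counts at 120 dpn and 13 at 180 dpn. The tags also highest at 120 dpn were tag 187 with 6.41 TPM, tag 166 with 4.08 TPM, tag 49 with 3.79 TPM, tag 112 with 3.21 TPM and tag 171 with 1.17 TPM. At 180 dpn tag 60 had 1.93 TPM and tag 174 had 1.11 TPM. All 10 stayed below their lowest prenatal TPM. These libraries differ from the others in tags with a further CATG, and the part of that in these values was not tested. Other rules for marking results need replicates within a group and could not be applied to groups of 1 library.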

How the results depend on the processing

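The set of 200 tags depended on the constant added to TPM, with 35 of the 200 still chosen at 0.1 TPM and 133 at 5 TPM. Leaving out single libraries kept 155 to 198 of them, TMM scaling 160, merging of tags 1 base apart 195 and use of all 10 postnatal libraries 193. The counts of tags below 10% stayed within 1.5 times their value under all 5 alternatives, at 114 to 190. For the breed test DESeq2 called 45 tags (22.5%, against 25.2% of all tags), no filter on low counts 21 (10.5%, against 7.55%), no stage block 14 (7%, against 12.2%) and the further-CATG covariate 0 (against 0.00617%), and leaving out single stages gave 0 to 79. For the trend DESeq2 called 41 (20.5%, against 9.35%), 35 dpc against the later stages 4 (2%, against 2.37%), and leaving out single stages gave 0 to 26. For 28 against 2 dpn DESeq2 called 6 (3.02%, against 1.36%) and no filter 4 (2%, against 0.115%), with 0 in the other 6 alternatives. For 90 against 28 dpn all 8 alternatives gave 0. Some of these fits change the number of tags or libraries tested, and otherwise the cause was not tested. The further-CATG share largely followed breed before birth, so the fit with it cannot tell them apart. The breed test paired the breeds by stage, and the labels carry no replicate numbers to pair by. Depth limits the share left of tags with a low prenatal level, since 3 counts were 0.564 to 1.39 TPM.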
